A study of Mus musculus with 8 samples.

Results

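Most proteins of the cytosolic ribosome are encoded by genes named Rpl, for the large subunit, or Rps, for the small subunit. Their mRNAs were followed in bone marrow-derived macrophages, which are macrophages grown from mouse bone marrow. Members were the rows of the deposited count table whose symbol is Rpl or Rps with a number, Rplp0, Rplp1, Rplp2 or Rpsa. Rps6k kinases (10 rows) and rows named as pseudogenes (17 rows) were left out. These letters matched 87 of 22165 rows. One of them, Rps19bp1, encodes a binding partner and was counted apart, which left 86 ribosomal protein genes, 53 of the large and 33 of the small subunit. Rps19bp1 itself measured 21.2 to 48.5 CPM (counts scaled to library size and composition) over the libraries and was not called in any comparison.

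Poly(A) RNA was sequenced in 8 libraries of 2 per group. All cells were labelled C57BL/6 and were grown for 7 days in medium with M-CSF. The groups were wild-type cells without treatment, wild-type cells given 250 µM dimethyl itaconate (DI) for 12 h, Nrf2-/- cells without treatment, and Nrf2-/- cells given the same dose for the same time. DI is a membrane-permeable ester of itaconate that reacts with thiols, and Nrf2, encoded by Nfe2l2, is a transcription factor of the response to such electrophiles. The knockout mice came from a commercial breeder, and the labels name neither littermate controls nor the animals behind each library. The p-values therefore measure the spread among libraries, which may be technical. With 2 libraries against 2, an exact permutation test cannot go below p = 0.333, so calls rest on a model that shares its estimate of the spread across genes and groups.

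Libraries held 5554288 to 15680671 counts. Nfe2l2 measured 230.2 and 454 CPM in the untreated wild-type libraries, 298 and 416 in wild type with DI, 40.2 and 52.9 in untreated knockout and 67.6 and 88 in knockout with DI. All 4 knockout libraries were below all 4 wild-type libraries. Counts over the whole gene do not show which exons they came from. The 8 macrophage markers summed to 5256 and 5371 CPM in untreated knockout, 3486 and 4154 in knockout with DI, and 4147 to 4722 in wild type, and erythroid markers to at most 0.699 CPM. Stromal markers, among them collagens, summed to 90.8 to 132 CPM in the 4 wild-type libraries and 44.8 to 50.2 CPM in the 4 knockout libraries. Mitochondrial genome transcripts took 1.02% to 1.54% of counts in 6 libraries and 1.59% and 2.1% in the wild-type libraries with DI. The part of either in the differences given here was not tested.

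Each ribosome needs 1 copy of nearly every ribosomal protein, so cells make these proteins in step. Their mRNAs are among the most abundant of growing cells and usually begin with a short pyrimidine run, the terminal oligopyrimidine (TOP) motif, through which mTOR signalling and LARP1 set how well they are translated. Control of this class is therefore known mainly from translation, which RNA counts do not measure. Ribosomal protein genes have also left many processed pseudogenes in mammalian genomes, so that reads from 1 gene can match several places.

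Sequences are shown first where they decide what a count can tell apart. Rpl39 lines the exit tunnel of the large subunit, and Rpl39l is its paralogue, known mainly from testis, with a coding sequence in 1 exon. Their coding sequences, without the stop codon, each hold 153 bases and differ at 23 of them, shown in capitals. Rpl39 lies at chrX:37082704-37085127 (minus strand) and Rpl39l at chr16:10174310-10174462 (plus strand) in GRCm38.
Rpl39: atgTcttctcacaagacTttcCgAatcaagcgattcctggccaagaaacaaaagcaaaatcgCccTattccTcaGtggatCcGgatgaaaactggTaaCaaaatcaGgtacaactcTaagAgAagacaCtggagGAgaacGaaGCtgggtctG
Rpl39l: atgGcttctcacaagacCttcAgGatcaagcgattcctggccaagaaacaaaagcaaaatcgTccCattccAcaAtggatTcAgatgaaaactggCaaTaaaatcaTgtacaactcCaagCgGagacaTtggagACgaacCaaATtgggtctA
Of these differences, 19 fall in the last 100 coding bases, so reads there can separate the genes, although gene counts do not show where in a gene the reads lay. The encoded proteins are identical at 48 of 51 residues.

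The opposite case is Rps27 and its retrotransposed copy Rps27rt, whose coding sequences of 252 bases do not differ at any base. The sequence is printed once, from chr3:90212728-90213615 (minus strand), and that of Rps27rt lies in 1 exon at chr9:114982456-114982707 (minus strand).
Rps27: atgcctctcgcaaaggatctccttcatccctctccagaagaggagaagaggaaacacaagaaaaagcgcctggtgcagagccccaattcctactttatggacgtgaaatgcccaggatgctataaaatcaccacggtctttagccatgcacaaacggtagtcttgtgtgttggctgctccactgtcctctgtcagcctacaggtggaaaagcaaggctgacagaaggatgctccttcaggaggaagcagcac
Reads inside it cannot be assigned to either gene. Rps27 measured 6.2 and 4.53 CPM in the untreated wild-type libraries, 6.28 and 9.5 in wild type with DI, 4.9 and 5.53 in untreated knockout and 5.76 and 4.96 in knockout with DI. Rps27rt measured 44.4 and 52.9 CPM in the untreated wild-type libraries, 42.5 and 46.6 in wild type with DI, 54.4 and 52.5 in untreated knockout and 30.7 and 41.3 in knockout with DI. The lowest library of the copy was above the highest library of Rps27, and the split between both genes is uncertain.

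Such copies were common. Of 85 members with an annotated coding sequence, 76 had at least 1 other gene whose transcript matched their last 100 coding bases at 95% identity or more, and 53 had an identical match. Mean CPM over the 8 libraries had a median of 40.2 over the 15 members with at least 3 identical matches and 250.4 over the 32 members with none. The contrast was smaller at other limits: the median was 175 over all 53 members with an identical match and 167 over the 9 without a match at 95%. Rpl10, the protein fitted last into the large subunit near its catalytic centre, has 7 identical copies. It measured 3.75 and 2.26 CPM in the untreated wild-type libraries, 3.77 and 5.59 in wild type with DI, 3.67 and 2.06 in untreated knockout and 4.69 and 2.23 in knockout with DI. Among the tested members only Rpl39l was lower. The labels do not say how reads that match several genes were counted, so counts of members with copies are uncertain as levels, and the part of copies in any change was not tested.

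**Figure D1:**
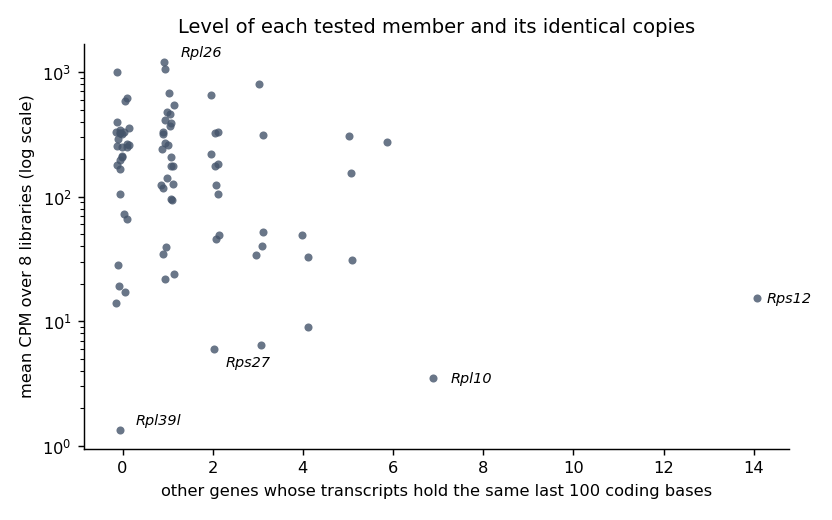
Mean CPM over 8 libraries (log axis) of each tested member with a coding sequence against the number of other genes that share its last 100 coding bases exactly, with small horizontal jitter. Rpl10, with 7 such genes, and Rps12, with 14, lie low, while Rpl39l is the lowest with none.

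The bases around the listed start of each transcript were read next, because the TOP motif defines this class. A TOP-like run was taken as a C followed by at least 4 further C or T letters, on the transcribed strand only. It had to begin within 10 bases on either side of the start listed by RefSeq (GRCm38.p6). A run can therefore end before that start and lie outside the transcript, as the run of Rpl39l below does. Such a run was found in 37 of 65 members with a listed start (56.9%) and in 3759 of 11652 other genes with counts (32.3%). The windows of 30 bases below belong to members called in the comparisons, with the run in capitals. They lie at chr17:24720062-24720091 (plus strand) for Rps2, chr13:90923120-90923149 (plus strand) for Rps23, chr11:114668575-114668604 (plus strand) for Rpl38, chrX:37085192-37085221 (minus strand) for Rpl39 and chr16:10170216-10170245 (plus strand) for Rpl39l.
Rps2: tcgcgCTTCTTggagcactataaattgtcc
Rps23: cggggCTTCCCgcaatgccttgtgggtcct
Rpl38: tcgttCTTTCCCCgttctcttcggttctca
Rpl39: agcgaCTTCTTCTaatcgcgttcttccggt
Rpl39l: ccaggCCTTTCCggatttccggtggtcgcc
The windows of Rpl23 at chr11:97782420-97782449 (minus strand) and Rps16 at chr7:28350679-28350708 (plus strand), both also called, held no such run.
Rpl23: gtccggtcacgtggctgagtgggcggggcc
Rps16: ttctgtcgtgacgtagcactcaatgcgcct
A listed start can differ from the start used in macrophages, so a missing run says only that these letters are not in this window.

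The libraries were primed with a run of T, which can anneal to A-rich stretches inside a transcript. The highest count of A in any 15 coding bases had a median of 10 both in members and in other genes. At least 12 A were present in 2 of 85 members (2.35%), Rps26 and Rpl6, and in 9.32% of other genes. Rpl10a, whose calls change when the trend with this count is removed, holds 11 A in the stretch shown in capitals, at chr17:28329484-28329513 (plus strand) in exon 4.
Rpl10a: agaagctTAACAAAAACAAGAAgttggtca

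The summed share of ribosomal protein mRNA overlapped between the groups. Members took 1.95% and 2.1% of all counts in untreated wild-type cells, 1.9% and 2.08% in wild-type cells with DI, 1.94% and 2.12% in untreated knockout cells and 2.05% and 2.31% in knockout cells with DI. The highest single library was the second of knockout with DI, where Rps24 alone made up 12.6% of the member counts. The 9 members without a near-identical copy, a small part of these counts, took 0.129% and 0.115% in untreated wild type, 0.152% and 0.144% in wild type with DI, 0.141% and 0.146% in untreated knockout and 0.131% and 0.127% in knockout with DI, so their wild-type libraries with DI were above the untreated ones. Large-subunit members took 1.04% to 1.27% and small-subunit members 0.784% to 1.1%, with the 1.1% in the second knockout library with DI. The share of the 17 rows named as pseudogenes was at most 0.0034% in any library. Many copies of members carry other names and are not part of that share. In bulk RNA a lower share of cells of a kind and less RNA per cell cannot be told apart.

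The sum can hide shifts of single members, and it was taken of unscaled totals, while CPM are also scaled for composition. With totals alone, the median log2 fold change with DI in wild type was 0.16 over members and -0.10 over all genes. With scaling for composition these were 0.24 and -0.02. Against each gene's own mean, the median member lay at -0.086 and -0.107 in the untreated wild-type libraries, 0.109 and 0.149 in wild type with DI, -0.040 and -0.008 in untreated knockout and -0.184 and -0.023 in knockout with DI, on the log2(CPM + 0.5) scale. Both wild-type libraries with DI were above all others. The median over all genes tested stayed between -0.012 and 0.010 in every library.

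**Figure D2:**
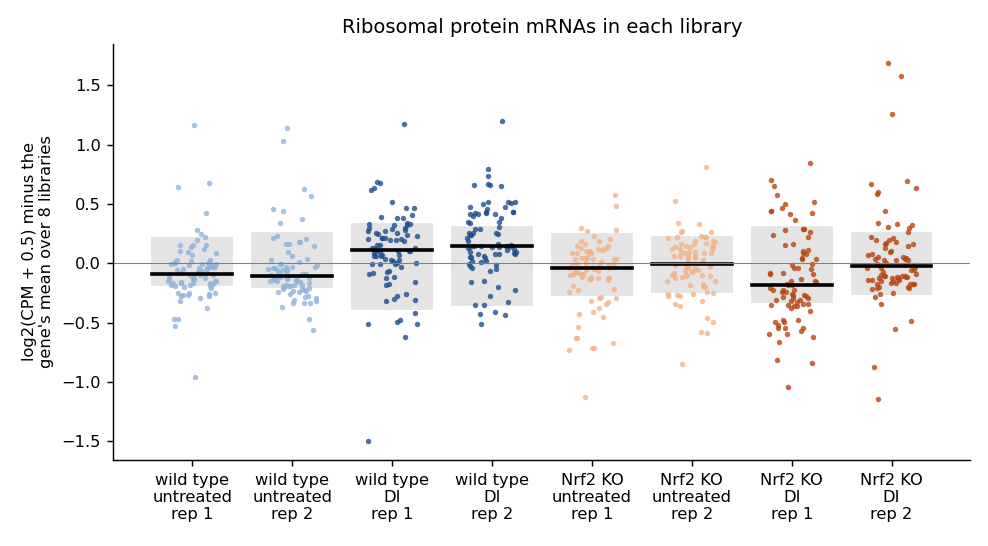
Deviation of 84 ribosomal protein mRNAs from their own mean over 8 libraries, in log2(CPM + 0.5) (y axis), for each library (x axis). Points are genes, black lines medians of the members, and grey boxes the middle 50% of all genes tested; the 2 wild-type libraries with DI have the highest medians, 0.109 and 0.149.

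Levels of different members were compared per kilobase of coding sequence. Rps29 had the highest value, 4020.1 CPM per coding kilobase, followed by Rpl26 with 2757 and Rps24 with 2524. Rpl38 was also among the high values, with 1579. At the low end were Rpl15 with 14.6, Rpl39l with 8.68 and Rpl10 with 5.46, apart from the members not tested. The order of neighbours is uncertain wherever libraries of a gene differ as much as those of Rpl26, a large-subunit protein near the tunnel exit. Rpl26 measured 961 and 1702 CPM in the untreated wild-type libraries, 806 and 1270.1 in wild type with DI, 741 and 1248 in untreated knockout and 1799 and 1066 in knockout with DI. Its groups overlap throughout.

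Of the 86 members 84 passed the filter on low counts. Rpl10l, the retrogene of Rpl10 known from testis, had 0 counts in all libraries, and Rpl3l, the paralogue known from muscle, had at most 2 in any. In the 5 comparisons 12 members were called at least once, at a Benjamini-Hochberg adjusted p under 0.05 over 11079 genes.

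DI in wild-type cells moved 3 of 84 members past the test, 2 higher and 1 lower. Rps2 rose 1.88-fold and Rpl23 1.6-fold. The 3 calls are 3.57% of the members tested, and over all genes 15.2% were called (6.51% higher, 8.68% lower). Most estimates were positive: 65 of 84 members, against 48.8% of all genes, with a median log2 fold change of 0.24 against -0.02. In 50 members (59.5%) both DI libraries were above both untreated ones, against 28.6% of all genes, and in 6 (7.14%) both were below, against 29.3%. At an unadjusted p under 0.05 the count was 11 higher and 4 lower, 15 of 84, where 30.8% of all genes passed. Both subunits had positive medians, 0.17 over 51 large-subunit and 0.31 over 33 small-subunit members. Members with a TOP-like run (35 tested) had a median of 0.19 and those with a listed start and no run (28 tested) 0.28. Other lists moved in the same comparison. Mitochondrial genome transcripts had 5 of 13 called higher, and macrophage markers 3 of 8 called lower. Neutrophil markers summed to 371 and 378 CPM in untreated wild type and 249.6 and 319 with DI, with both DI libraries lower in 5 of 6 tested genes, and dendritic cell markers were lower in the same way in 3 of 3, though none of either list was called by edgeR (3 of 6 and 1 of 3 at an unadjusted p under 0.05). The part of these lists in the members' change was not tested.

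Rps2, a small-subunit protein at the mRNA entry, measured 82.8 and 78.5 CPM in the untreated wild-type libraries, 164 and 140.0 in wild type with DI, 116 and 78.9 in untreated knockout and 82.8 and 99.3 in knockout with DI. Both wild-type libraries with DI were above the other 6. The change with DI in wild type was 0.91 ± 0.24 (SE, n = 2 libraries a group), with adjusted p = 0.0244 from edgeR's quasi-likelihood test. Rpl23, a large-subunit protein that in free form binds MDM2, measured 497 and 421 CPM in the untreated wild-type libraries, 708 and 761 in wild type with DI, 532 and 558 in untreated knockout and 410.0 and 473 in knockout with DI. Here too the 2 wild-type libraries with DI were the highest. Its change was 0.68 ± 0.21 (SE; adjusted p = 0.0489).

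Both calls were close to the threshold. Rpl23 did not pass without any 1 of the 8 libraries, at adjusted p from 0.0526 to 0.252. Rps2 was lost without the first or second untreated library or the first DI library of wild type (adjusted p = 0.0845, 0.129 and 0.0902; 0.00435 to 0.129 over all settings), and also with the A-rich trend removed, at 0.74 (adjusted p = 0.0526). Rpl7a, a large-subunit protein, had 1 of the 2 smallest p among negative estimates and did not pass. It measured 52.7 and 32.6 CPM in the untreated wild-type libraries, 26.5 and 25.6 in wild type with DI, 36.7 and 35.6 in untreated knockout and 22.7 and 38.1 in knockout with DI, and its change was -0.71 ± 0.29 (SE; adjusted p = 0.121).

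In knockout cells DI moved a single member past the test. Rps23 fell and none rose in edgeR. At an unadjusted p under 0.05, 8 members had a positive and 5 a negative estimate, where 26.4% of all genes passed. DESeq2 called 2 members higher, Rpl35 and Rps24, and over all 15299 genes 701 higher and 522 lower. In both members the knockout libraries with DI lay over 2-fold apart, with the second library the higher. The 1 call by edgeR is 1.19% of the members, and over all genes edgeR called 8.48%, 4.49% higher and 4% lower. Positive estimates were seen in 37 of 84 members and in 50.2% of all genes, with a median of -0.09 against 0.00 over all genes. By subunit, 25 of 33 small-subunit members had a negative estimate (median -0.18) and 22 of 51 large-subunit members (median 0.10). Both DI libraries were below both untreated ones in 28 members (33.3%, against 29.3% of all genes) and above in 16 (19%, against 29.1%). Macrophage markers had a negative estimate in 8 of 8 genes here, with 3 called lower and both DI libraries lower in 7, and their part was not tested.

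Rps23, which sits at the decoding centre of the small subunit, measured 376 and 443 CPM in the untreated wild-type libraries, 368 and 441 in wild type with DI, 679 and 800.5 in untreated knockout and 259 and 481 in knockout with DI. The untreated knockout libraries stood above the other 6. The fall with DI was -1.0 ± 0.28 (SE, n = 2 libraries a group), with adjusted p = 0.0487 from edgeR's quasi-likelihood test. Without the first knockout library with DI it was -0.62 (adjusted p = 0.276; 0.00286 to 0.276 over all settings), and the call was also lost without either untreated wild-type library (0.0662, 0.0654) or either untreated knockout library (0.152, 0.246).

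Rps12 and Rpl35 had the 2 smallest p among positive estimates in knockout cells. Rps12, a small-subunit protein with 14 identical copies, measured 11.3 and 9.83 CPM in the untreated wild-type libraries, 13.2 and 17.7 in wild type with DI, 15.7 and 10.6 in untreated knockout and 22.3 and 23.3 in knockout with DI. Both groups with DI were above their untreated group, and the change in knockout cells was 0.80 ± 0.26 (SE; adjusted p = 0.0808). Rpl35, a large-subunit protein at the tunnel exit, measured 15.1 and 27.9 CPM in the untreated wild-type libraries, 20.1 and 18.1 in wild type with DI, 13.6 and 20.4 in untreated knockout and 23.7 and 53.2 in knockout with DI. The second knockout library with DI was 2.24 times the first, and the change of 1.16 ± 0.39 (SE; adjusted p = 0.0822) became 0.47 without it. Rps27rt, given above, had -0.57 ± 0.23 (SE; adjusted p = 0.14), which did not pass.

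**Figure D3:**
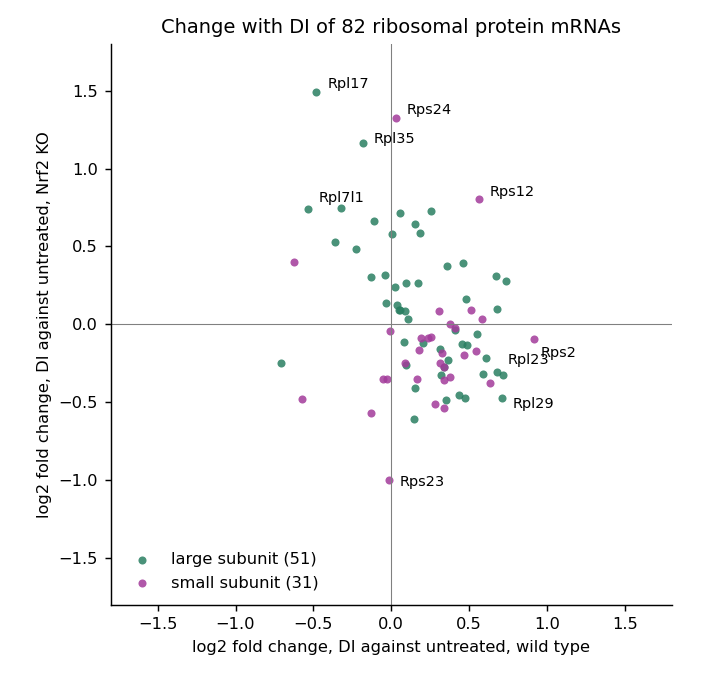
Log2 fold change with DI of 82 ribosomal protein mRNAs in wild-type cells (x axis) and in Nrf2 knockout cells (y axis), coloured by subunit, with called and outlying members named. The lower right, higher with DI in wild type and lower in knockout, holds 39 of them, and Rps23 lies lowest on the y axis, at -1.0.

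The responses to DI in the 2 genotypes rest on separate libraries. Across the 84 members Pearson's r between them was -0.36 and Spearman's rho -0.29, and across all 11079 genes 0.20 and 0.13, as a description across genes, which share libraries and depth. A positive estimate in wild type with a negative one in knockout was seen in 40 members (47.6%) and in 23.2% of all genes. These shares also depend on how many estimates were positive in each genotype alone. In wild type that was 65 of 84 members and 48.8% of all genes, and in knockout 37 of 84 and 50.2%. Positive estimates in both were seen in 25 members and negative ones in both in 7.

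The difference between both responses was tested as an interaction, the change in knockout minus the change in wild type. In edgeR 1 member of 84 passed, with a positive value (1.19% of members), against 7.55% of all genes (4.96% higher, 2.59% lower).

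Most estimates of the interaction were negative and did not pass. The median interaction over members was -0.34 against 0.02 over all genes, -0.43 over the small and -0.08 over the large subunit, and 55 of 84 were negative, where 51% of all genes were positive. At an unadjusted p under 0.05, 16 members were negative and 6 positive, together 22 of 84, beside 26.4% of all genes. DESeq2 called 6 members negative and 2 positive, and over all 15299 genes 412 negative and 773 positive. Rps16, Rpl29 and Rpl7l1 were nearest to the threshold, with -1.01 ± 0.29 (SE; adjusted p = 0.0518), -1.18 ± 0.34 (SE; adjusted p = 0.057) and 1.27 ± 0.36 (SE; adjusted p = 0.0523). Removing the A-rich trend changed the set called to Rpl10a and Rpl39, both negative, with a member median of -0.20.

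Without treatment 0 of 84 members passed between the genotypes by edgeR, and 0 by DESeq2, with 5 at an unadjusted p under 0.05 (1 higher in knockout, 4 lower; 10.6% of all genes), against 0.605% of all genes called (0.0812% higher, 0.524% lower). Positive estimates were seen in 49 members and in 48.9% of all genes, and the member median was 0.06 against -0.01. Rps23 and Rps7 had the smallest p among positive estimates, 0.85 ± 0.28 (SE; adjusted p = 0.26) and 0.45 ± 0.24 (SE; adjusted p = 0.556). Rps7, a small-subunit protein, measured 47.5 and 43.4 CPM in the untreated wild-type libraries, 58.2 and 56.4 in wild type with DI, 71.5 and 52.7 in untreated knockout and 36.5 and 48.9 in knockout with DI. The untreated knockout libraries were both above the untreated wild-type libraries, though by less than the test required. Rpl39l had 1 of the 2 smallest p among negative estimates, -2.11 ± 0.81 (SE; adjusted p = 0.357).

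Under DI the genotypes differed at 10 of 84 members (11.9%), where 21.2% of all genes were called (11.4% higher, 9.74% lower in knockout). Rpl7l1 was higher in knockout, and 9 were lower, among them Rps2, Rps16, Rpl10a, Rpl23, Rpl29, Rpl38, Rpl39 and Rpl39l. The member median was -0.22 against 0.01 over all genes, and 60 of 84 estimates were negative, where 50.8% of all genes were positive. At an unadjusted p under 0.05, 19 members were lower and 6 higher, together 25 of 84, where 36% of all genes passed. In 40 members (47.6%) both knockout libraries were below both wild-type ones, against 30.5% of all genes, and in 8 (9.52%) above, against 30.1%. Small-subunit members had a median of -0.26, with 28 of 33 negative, and large-subunit members -0.11, with 32 of 51 negative. This comparison shares its libraries with both DI responses and is no separate evidence for them. Stromal markers, 5 of 6 called lower in knockout, and mitochondrial transcripts, 5 of 13 called lower, moved in the same comparison, and their part was not tested.

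Rpl39l gave the widest difference of any member. Its raw counts were 32 and 12 in untreated wild type, 18 and 31 in wild type with DI, 1 and 5 in untreated knockout and 3 and 3 in knockout with DI. Scaled for depth, no knockout library reached the lowest wild-type library. It measured 2.79 and 0.776 CPM in the untreated wild-type libraries, 2.83 and 2.89 in wild type with DI, 0.175 and 0.542 in untreated knockout and 0.32 and 0.304 in knockout with DI. Under DI the fitted difference was -3.15 ± 0.79 (SE, n = 2 libraries a group), with adjusted p = 0.0151 from edgeR's quasi-likelihood test. Summed counts of 49 and 6 gave a ratio of 9.19 (exact 95% interval 3.93 to 26.3) between wild type and knockout with DI, and 44 and 6 a ratio of 4.07 (1.73 to 11.7) without. These intervals cover counting error only, since reads without molecular identifiers are not independent molecules. The gene passed the filter on low counts only through the wild-type groups. The call was lost without the second wild-type DI library (adjusted p = 0.0545), or without the first (0.0807) or second (0.0707) knockout DI library, and adjusted p over all settings ran from 0.000453 to 0.0807.

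Rpl29, a large-subunit protein, measured 28.3 and 21.7 CPM in the untreated wild-type libraries, 34.2 and 47.1 in wild type with DI, 26.4 and 27.8 in untreated knockout and 20.9 and 18.2 in knockout with DI. The wild-type libraries with DI were the highest and the knockout libraries with DI the lowest, and the difference was -1.06 ± 0.25 (SE; adjusted p = 0.0104). Rpl39 measured 183 and 177 CPM in the untreated wild-type libraries, 245 and 254 in wild type with DI, 207 and 218 in untreated knockout and 126 and 181 in knockout with DI, and differed by -0.70 ± 0.23 (SE; adjusted p = 0.0449). Rpl38, the large-subunit protein mutated in the Tail short mouse, measured 289 and 286 CPM in the untreated wild-type libraries, 426 and 439 in wild type with DI, 328 and 346 in untreated knockout and 257 and 282 in knockout with DI. It had the same order of groups as Rpl29, and differed by -0.68 ± 0.20 (SE; adjusted p = 0.033). Rpl10a, which forms the mobile arm next to the exit site for tRNA, measured 126 and 125 CPM in the untreated wild-type libraries, 163 and 219 in wild type with DI, 122 and 149 in untreated knockout and 118 and 116 in knockout with DI. In it the knockout libraries with DI lay below all others, at a difference of -0.71 ± 0.23 (SE; adjusted p = 0.0438).

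Among small-subunit members, Rps16, whose tail reaches the peptidyl-tRNA, measured 274 and 267 CPM in the untreated wild-type libraries, 415 and 425 in wild type with DI, 326 and 349 in untreated knockout and 247 and 272 in knockout with DI. It differed by -0.69 ± 0.20 (SE; adjusted p = 0.0312). Rps2 and Rpl23, given above for wild type, differed by -0.74 ± 0.24 (SE; adjusted p = 0.0474) and -0.73 ± 0.21 (SE; adjusted p = 0.029). Rpl7l1, a paralogue of Rpl7 found in ribosome precursors, measured 104 and 154 CPM in the untreated wild-type libraries, 94.7 and 83.8 in wild type with DI, 97.6 and 90.9 in untreated knockout and 185 and 129.8 in knockout with DI. Its 2 wild-type libraries with DI and its untreated knockout libraries lay below both knockout libraries with DI, and the difference was 0.82 ± 0.26 (SE; adjusted p = 0.0413). Rps24, a small-subunit protein, had the next smallest p among positive estimates, 1.24 ± 0.44 (SE; adjusted p = 0.0617). It measured 632 and 861 CPM in the untreated wild-type libraries, 656 and 866 in wild type with DI, 714 and 723 in untreated knockout and 772 and 2830.4 in knockout with DI. A single library, the second of knockout with DI, stood apart, and without it the difference was 0.02.

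**Figure D4:**
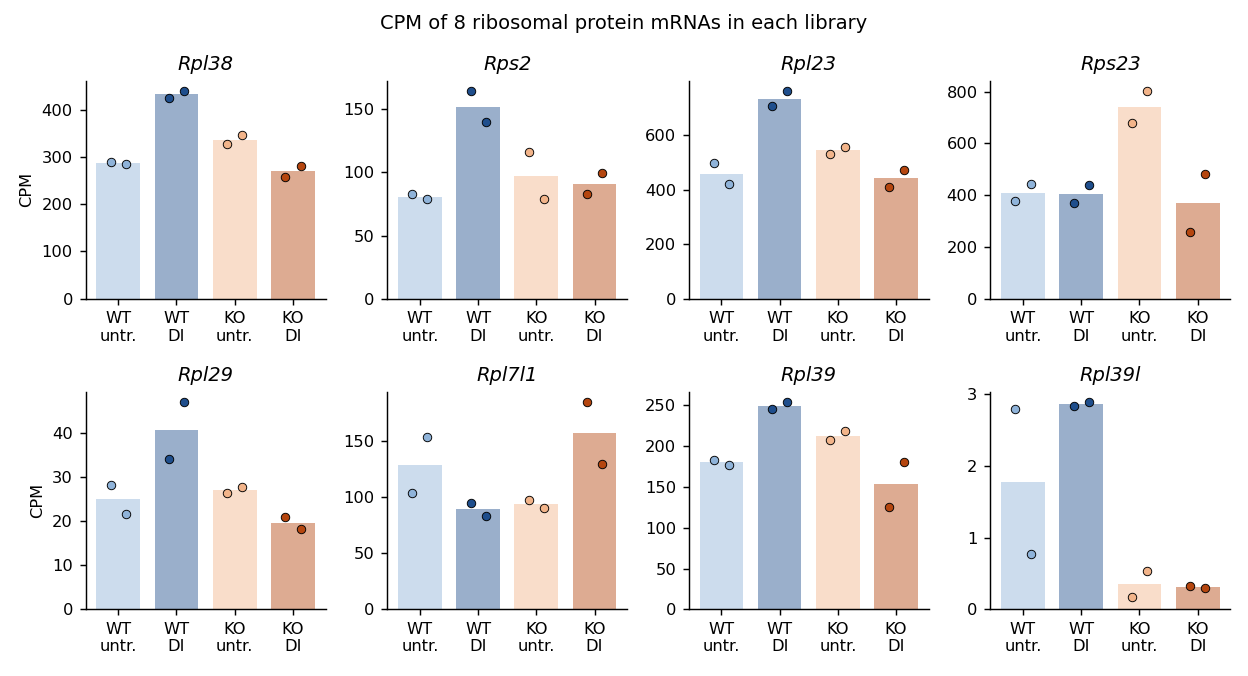
CPM (y axis, from 0) of 8 ribosomal protein mRNAs in wild-type (WT) and Nrf2 knockout (KO) cells, untreated (untr.) or with DI. Points are libraries and bars the means of 2; Rps23 is highest in the untreated knockout libraries, at 679 and 800, and Rpl39l is at most 0.542 CPM in every knockout library.

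**Figure D5:**
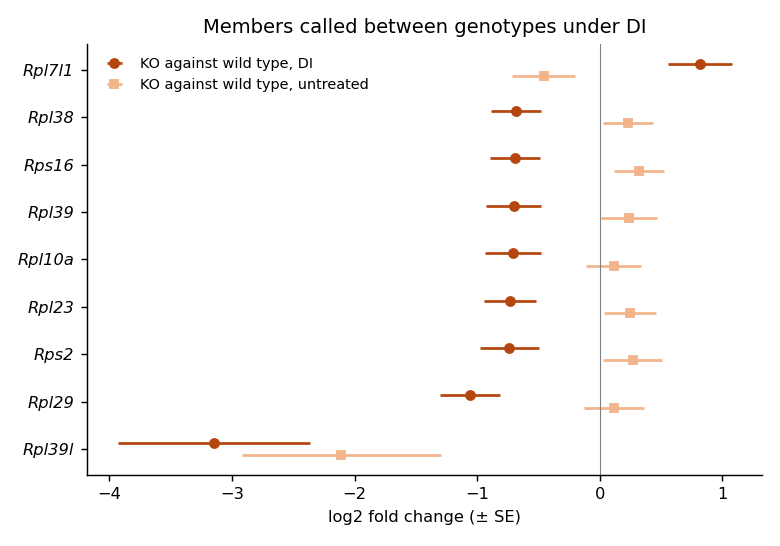
Log2 fold change of knockout against wild type (x axis), with SE bars, for 9 of the 10 members called under DI, with the untreated comparison beside it. Rpl39l is negative in both, at -3.15 and -2.11, and Rpl7l1 is the only member higher in knockout under DI, at 0.82.

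Most of the 10 calls were lost when 1 library was left out, and calls over all genes became fewer in each of these fits too. Without the second wild-type DI library 0 members were called by edgeR, and without either untreated knockout library only Rpl29 and Rpl39l were. Without the first wild-type DI library 5 were called, among them Rpl10a, Rpl23, Rpl29 and Rpl39l. Without the first knockout DI library Rpl29, Rpl35, Rpl6l and Rps24 were, and without the second Rpl7l1, Rpl39, Rpl11, Rpl24 and Rpl27. Without either untreated wild-type library 6 were called: Rpl7l1, Rpl23, Rpl29, Rpl38, Rpl39l and Rps16. In a fit of the compared groups alone, Rpl29 and Rpl39l passed. With unscaled library totals 2 members were higher and 2 lower. With the A-rich trend removed 8 were called, with Rpl13a, Rpl30 and Rps27l among them and without Rps2, Rps16, Rpl38 and Rpl7l1. The replicate block called 10, with Rpl17 among them and without Rps2. Over all genes, the compared groups alone gave 888 higher and 733 lower in knockout, of 10657 tested. Unscaled totals gave 1621 and 849, the A-rich trend removed 998 and 873, and the replicate block 1261 and 1048, of 11079.

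The 3 stalk proteins, which recruit the elongation factors, were not called in any comparison. Rplp0, the base of the stalk, measured 125 and 102 CPM in the untreated wild-type libraries, 154 and 139 in wild type with DI, 139 and 126 in untreated knockout and 101 and 125 in knockout with DI. Rplp1 measured 249.7 and 286 CPM in the untreated wild-type libraries, 260.3 and 264 in wild type with DI, 230.1 and 218 in untreated knockout and 270.0 and 222 in knockout with DI. Rplp2 measured 364 and 376 CPM in the untreated wild-type libraries, 358 and 275 in wild type with DI, 356 and 310.2 in untreated knockout and 506 and 426 in knockout with DI. Their changes with DI in wild type were 0.37 ± 0.22, -0.03 ± 0.21 and -0.23 ± 0.22, and in knockout -0.23 ± 0.22, 0.14 ± 0.21 and 0.48 ± 0.22. Rplp2 had the smallest p of the 3 in the interaction and between genotypes under DI, with 0.71 ± 0.32 (SE; adjusted p = 0.176) and 0.56 ± 0.22 (SE; adjusted p = 0.0946).

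With all libraries and the filter on low counts, the paralogues other than Rpl39l and Rpl7l1 did not pass. Rpl22l1, 70.3% identical in protein to Rpl22, measured 16.2 and 15.6 CPM in the untreated wild-type libraries, 18.2 and 17 in wild type with DI, 20.8 and 21.4 in untreated knockout and 11 and 16.7 in knockout with DI. Rpl36al, which encodes the same protein as Rpl36a although 39 of 318 coding bases differ, measured 118 and 122 CPM in the untreated wild-type libraries, 124 and 124 in wild type with DI, 134 and 115 in untreated knockout and 112 and 153 in knockout with DI. Rpl36al varied little between groups and stood per coding kilobase at 394 CPM, close to Rpl36a with 393. Rps27l, a paralogue of Rps27 known as a p53 target, measured 359.8 and 281 CPM in the untreated wild-type libraries, 397 and 380.3 in wild type with DI, 385 and 348 in untreated knockout and 224 and 290.0 in knockout with DI. Its knockout libraries with DI were the lowest pair with 1 exception, the second untreated wild-type library, and the difference between genotypes under DI was -0.60 ± 0.23 (SE; adjusted p = 0.0808), which passed with the A-rich trend removed. Rpl6l, which the annotation lists as a processed pseudogene, measured 4.37 and 4.14 CPM in the untreated wild-type libraries, 5.65 and 3.91 in wild type with DI, 2.8 and 3.8 in untreated knockout and 3.73 and 1.32 in knockout with DI. All 8 values rest on few reads. None of its comparisons passed with all libraries, and the genotypes under DI passed without the first knockout DI library.

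Libraries of 1 group differed more for some members than groups did. The second library was over 2-fold from the first in 2 members in untreated wild type (Rpl17 and Rpl39l), 3 in wild type with DI (Rpl17, Rpl21 and Rpl23a), 1 in untreated knockout (Rpl39l) and 7 in knockout with DI (Rpl10, Rpl17, Rpl24, Rpl27, Rpl35, Rpl6l and Rps24). The median difference between libraries was 1.11-fold to 1.13-fold in 3 groups and 1.24-fold in knockout with DI. Rpl17, a large-subunit protein at the tunnel exit with 5 identical copies, measured 12.3 and 54.6 CPM in the untreated wild-type libraries, 8.32 and 38.9 in wild type with DI, 14.7 and 20.3 in untreated knockout and 25.2 and 73.8 in knockout with DI. In every group the second library was the higher one. No comparison of the gene passed in the fit without a replicate block, but with the block the genotypes under DI did, and without the filter on low counts 4 of the 5 comparisons did.

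Ribosomal proteins whose genes are named otherwise were no members. Fau and Rack1 were tested and neither was called by edgeR in any comparison. Rack1 changed by 0.45 ± 0.21 (SE; adjusted p = 0.157) with DI in wild type. Of 14 translation factors and other genes listed as of the TOP class, 0 were called in either DI response by edgeR. Whether each has a TOP-like run was not checked. At an unadjusted p under 0.05, 3 passed in wild type and 4 in knockout, where 30.8% and 26.4% of all genes did. The medians of these 14 genes were -0.02 in wild type and 0.11 in knockout. Pabpc1, the poly(A)-binding protein, was the 1 gene of this list called in knockout against wild type under DI, at 0.66 ± 0.21 (SE; adjusted p = 0.0452). That is 7.14% of the list, where 21.2% of all genes were called.

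Genes that build ribosomes were followed beside the ribosomal proteins. Of 30 ribosome biogenesis genes, 8 rose and 1 fell with DI in wild type (30% called, against 15.2% of all genes; median 0.15). In knockout 7 rose and none fell (23.3% called, against 8.48%; median 0.55, with 0 lower by edgeR at an unadjusted p under 0.05 as well). Their summed CPM went down with DI in wild type, from 3217 and 3361 untreated to 2715 and 3045. In knockout the sums went up, from 2449 and 2358 untreated to 4093 and 3751 with DI. The interaction was called at 6 of the 30 genes, all positive (20%, against 7.55% of all genes). Without treatment 26 of 30 estimates were lower in knockout than in wild type (median -0.28), with both knockout libraries lower in 15 (50%, against 21.7% of all genes), although edgeR called 0 of them and 7 had an unadjusted p under 0.05. Grwd1, an assembly chaperone, rose by 1.21 ± 0.31 in wild type, and Rrp9, a component of the U3 snoRNP, by 1.11 ± 0.29 in wild type and 1.36 ± 0.30 in knockout. Nop56, a core protein of box C/D snoRNPs, rose by 1.50 ± 0.29 in knockout. Ebna1bp2, a factor of large-subunit processing, fell by 1.21 ± 0.28 in wild type and rose by 1.29 ± 0.28 in knockout. Its interaction was 2.50 ± 0.40 (SE; adjusted p = 0.00399). Of 14 genes of RNA polymerase I and its factors, 2 rose and 1 fell in wild type (21.4% called), and 2 rose in knockout (14.3% called), with Ubtf, which activates rRNA transcription, at 1.25 ± 0.25 (SE; adjusted p = 0.014).

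Among regulators of ribosomal protein output, Myc, a transcription factor that promotes ribosome production, rose with DI in both genotypes, by 1.44 ± 0.23 (SE; adjusted p = 0.00129) in wild type and 1.23 ± 0.23 (SE; adjusted p = 0.0104) in knockout. It was 1 of 2 called among 14 tested regulators in each, with Eif4ebp2 in wild type and Mdm2 in knockout. That is 14.3% in both, beside 15.2% of all genes in wild type and 8.48% in knockout. Of 76 mitochondrial ribosomal proteins, which serve the separate ribosome of mitochondria, 3 rose with DI in wild type (median 0.09), 2 rose and 2 fell in knockout (median -0.05), and 4 were higher and 8 lower in knockout against wild type under DI (median -0.14). These are 3.95%, 5.26% and 15.8% of the list, each below the share of all genes called, 15.2%, 8.48% and 21.2%.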

How the data were processed

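Poly(A) RNA libraries were primed with barcoded oligo-dT, pooled after first-strand synthesis and amplified by 12 PCR cycles, per the labels' protocols, with strand kept and no molecular identifier described. The authors deposited raw counts per Ensembl gene, and STAR, HTSeq, DESeq2 and the build mm10 stand in the submitters' processing notes, with no version. The handling of reads that match several places is not stated there, nor is the annotation release.

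Symbols and sequences came from GENCODE M21 (GRCm38), which matched 21745 of 22165 rows, and transcript starts from RefSeq. Counts were filtered by edgeR's filterByExpr (minimum count 10, by group; 11079 genes), scaled by TMM and fitted with a mean for each group over the 8 libraries together. The test was edgeR's robust quasi-likelihood F-test (edgeR 4.0.16 under R 4.3.3), with Benjamini-Hochberg adjustment over all genes tested. The scripts were tested on simulated data. Copies were searched with BLAST 2.17.0 among annotated transcripts. Values in every library are printed for members called, the 2 with the smallest p per direction and comparison, stalk proteins, paralogues, and the 3 highest and 3 lowest members. Rpl17, Rps29, Rpl38 and Rpl15 as levels, and genes of other lists, were named after their values were seen. Members and lists were chosen with earlier results of these data known. Alternatives were DESeq2 1.42.0 and others given in the closing section. Counts, medians and fits include every member tested, but some genes are not reported here individually and are left out of the plots that name members.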

Additional observations from a re-analysis of the deposited data

How the results depend on the processing

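The counts of members called moved with most choices, as did those over all genes. The sign of each median change stayed except for DI in knockout cells, -0.09, which became 0.01 with the A-rich trend removed. Leaving out each library in turn gave 0 to 2 calls for DI in wild type (3 with all libraries), 0 to 2 for DI in knockout (1), 0 to 4 for the interaction (1), 0 for untreated genotypes (0) and 0 to 6 for genotypes under DI (10), with medians from 0.24 to 0.30, -0.16 to -0.02, -0.44 to -0.28, 0.02 to 0.11 and -0.33 to -0.18 in the same order. DESeq2 called 5 members for DI in wild type, 3 for DI in knockout and 8 for the interaction. Over all 15299 genes it called 742 higher and 1017 lower, 701 and 522, and 773 and 412, in the same order. Without the filter on low counts, 9 of 85 members were called for DI in knockout and 7 for the interaction. For untreated genotypes 3 were called, and for genotypes under DI 16. Over all 15299 genes the same fit called 1029 higher and 668 lower, 1106 and 491, 72 and 325, and 1603 and 1260, in that order. A fit of the compared groups alone called 0 for DI in knockout and 2 for genotypes under DI. Over all genes it called 579 higher and 449 lower, and 888 and 733, of 10657 tested in each. Library totals without TMM moved the median of all genes to -0.10 for DI in wild type and 0.12 for genotypes under DI, and the member medians to 0.16 and -0.11. They called 2 members for the interaction and 4 for genotypes under DI. Over all 11079 genes they called 676 higher and 257 lower for the interaction, and 1621 and 849 for genotypes under DI. With the A-rich trend removed 0 were called for DI in knockout and 2 for the interaction. Member medians were then -0.20 for the interaction and -0.09 for genotypes under DI. Over all genes this fit called 377 higher and 371 lower for DI in knockout, and 373 and 243 for the interaction.

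Leaving out members with a near-identical copy kept 8 tested members, with 0 calls in all comparisons by edgeR but genotypes under DI (1), and medians of 0.36 for DI in wild type, -0.49 for the interaction, 0.14 for untreated genotypes and -0.31 for genotypes under DI. Leaving out those with an identical copy, chosen after seeing the data, gave 1 call for DI in wild type, 0 for DI in knockout, 0 for the interaction and 4 for genotypes under DI. In the order untreated wild type, wild type with DI, untreated knockout and knockout with DI, the share of counts became 2.19%, 2.29%, 2.21% and 2.36% when the 10 most abundant genes left the total, and 0.122%, 0.148%, 0.143% and 0.129% for members without a copy. No change of a called member, or of those with the smallest p, turned sign in any setting run. Of the stalk proteins, Rplp1 did: with DI in wild type, -0.03, it ran from -0.20 to 0.07 and was positive without the second untreated or the first DI library of wild type, and in knockout, 0.14, it was -0.01 without the first knockout DI library.

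The labels do not say that equal replicate numbers mark a shared preparation. Deviations of same-numbered libraries from their group means correlated at -0.0799 to 0.156 over all genes and 0.0967 to 0.499 over members. With the replicate block 3 members were called for DI in knockout, 2 for the interaction and 2 for DI in wild type. For untreated genotypes 0 were called, and for genotypes under DI 10, where Rpl17 entered and Rps2 left. Over all genes the block gave 501 higher and 430 lower, 564 and 281, 703 and 971, 9 and 58, and 1261 and 1048, in that order. Depth limits Rpl39l, with at most 5 counts in any knockout library, and the untested Rpl3l and Rpl10l.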
